A study of Mus musculus with 7 samples.

Results

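The genes described here encode the receptors for the inhibitory transmitters GABA and glycine and the proteins that assemble, anchor and traffic them at the inhibitory postsynapse, together with the chloride transporters on which their action depends. An exception is *Elfn1*, listed with the adhesion proteins, whose product acts at excitatory inputs of somatostatin interneurons. The set is a list of 28 gene symbols, of 47729 genes in the count table, and each symbol was found exactly once. It was drawn up by function and not by any measured value. It comprised 5 α subunits and 5 other subunits of the GABAA receptor, 2 subunits and 3 auxiliary proteins of the GABAB receptor, 4 subunits of the glycine receptor, 4 scaffold or adhesion proteins, 3 trafficking proteins and 2 chloride transporters. In all, 27 of the 28 had enough counts for the test, which required at least 10 counts in at least 3 libraries. The exception was *Gabra6*, the α subunit of cerebellar granule cells.

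GABAA receptors are pentameric chloride channels whose subunits decide where a receptor sits and how it gates. Glycine receptors are chloride channels of the same family, and GABAB receptors are obligate heterodimers that act through G proteins, in part by opening potassium channels. At the postsynaptic membrane gephyrin forms a lattice that holds glycine receptors and many GABAA receptors opposite the terminal, and neuroligin 2 recruits it there. Whether the current through these channels hyperpolarizes a neuron depends on its internal chloride, which NKCC1 imports and KCC2 extrudes, and KCC2 expression climbs in the rodent forebrain during the first postnatal weeks.

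RNA came from whole forebrain of mice at postnatal day 15, on an F1(C57BL/6 X 129Sv) background. The 4 control pools were *Lhx6*+/- and the 3 mutant pools *Lhx6*-/-, with the *Lhx6*tm2Vpa null allele. LHX6 is the transcription factor that cortical interneurons born in the medial ganglionic eminence (MGE) need for their maturation. Each pool held 2 animals, the controls also carried 1 null allele, and the null was constitutive, not limited to a cell type, so the comparison is of animals with 1 functional copy against none. The question was which transcripts of the set differed in the forebrain that had lost *Lhx6* function. In RNA from whole tissue, fewer cells of a type and less RNA per cell cannot be told apart.

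Libraries held 32556304 to 38069151 expected counts. Normalized counts below are expected counts scaled to a common library size. *Lhx6* itself gave normalized counts of 615, 522, 476 and 522 in the controls, numbered 2, 3, 10 and 11, and of 70.9, 76.6 and 70.1 in the mutants, numbered 5, 12 and 13. Values per library follow that order throughout. Its log2 fold change, always mutant relative to control, was -2.88 ± 0.135 (SE; edgeR quasi-likelihood test, Benjamini-Hochberg adjusted p = 5.99e-05). Libraries 2, 3 and 5 stood apart from libraries 10 to 13 on the first principal component, which held 39.6% of the variance, and each run of numbers contained both genotypes. The second component (23.4%) had the controls above the mutants. The labels describe 1 mutant pool as 2 females, yet the summed level of 4 Y-linked genes was at least 6.00 on the log2(CPM + 1) scale in every mutant library, against 1.69 and 1.83 in control libraries 11 and 10. The library concerned could not be named because the columns carry no sex, so results are also given with each library left out. In controls, sex and run of numbers coincided and cannot be told apart. Within libraries 10 to 13 the controls had the low Y-linked level (1.83 and 1.69) and the mutants the high one (6.92 and 6.00). A comparison within these libraries therefore cannot tell genotype from sex.

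Across the set, 3 genes passed the test between genotypes. *Slc12a5*, which encodes KCC2, was lower in mutants (-26.4%), as was *Elfn1*, a postsynaptic adhesion protein of somatostatin interneurons (-45.1%). *Glra1*, the adult α subunit of the glycine receptor, was higher, from at most 8 counts in a control library and at most 53 in a mutant. No control library of *Glra1* reached the minimum of 10 counts, so it was tested only because its mutant libraries were high, and its call lends the counts over the set no support. None of the GABAA and GABAB receptor subunits in the set passed, although *Gabra3*, *Gabrd* and *Gabrg3* had an unadjusted p under 0.05. *Gabrd* and *Gabrg3* passed with DESeq2 and in an edgeR fit with a term for the run. *Gabra3*, *Gabrd* and *Gabrg3* passed within libraries 10 to 13, where genotype cannot be told from sex. The 3 calls, *Glra1* included, are 11.1% of the 27 tested members, beside 4.85% of the 19684 genes tested overall (2.97% higher and 1.87% lower). In 7 members (25.9%) the libraries of the genotypes did not overlap, 3 above and 4 below, beside 19.7% of all tested genes (10.7% above and 9% below). At an unadjusted p of 0.05 there were 8 members (29.6%), beside 18.2% of genes. These counts are a description of the list, which was compared with no other list.

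The median log2 fold change of the 27 was -0.03, against -0.01 over all tested genes. Of the members, 10 had positive values and 17 (63%) negative ones, where 52.2% of all genes were negative. The median absolute log2 fold change was 0.15 for members and 0.17 for all genes. The members were well covered, with a median of 85.5 CPM, which scales counts by the library total, against 11.7, and their median standard error was 0.135 against 0.156 (both on the log2 scale). In 17 members (63%) the log2 fold change lay within 0.2 of 0, as in 55.2% of all tested genes.

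**Figure D1:**
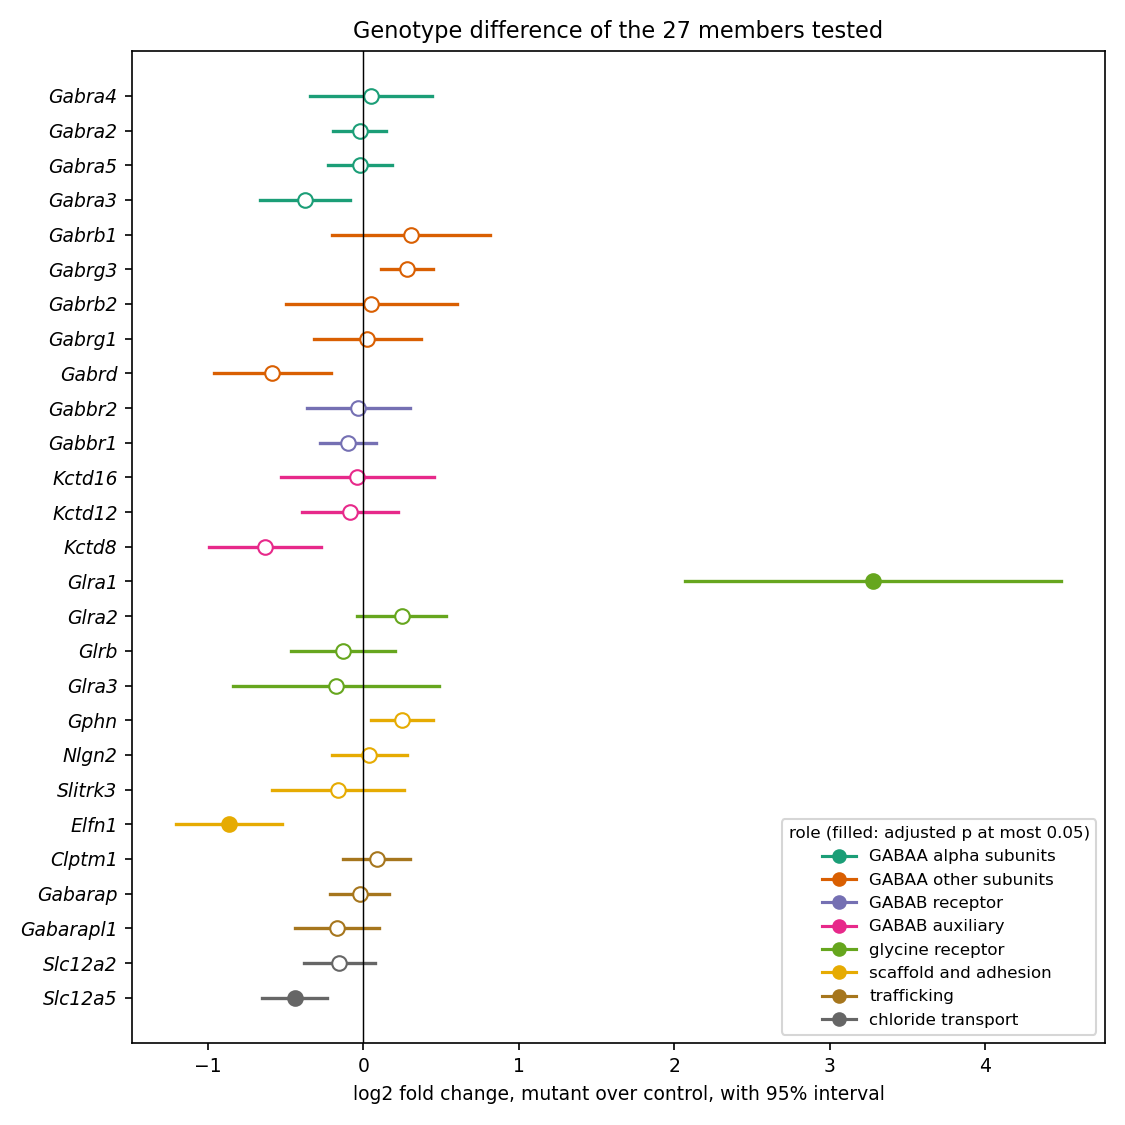
Log2 fold change (mutant relative to control) of the 27 tested members, grouped by role, with 95% confidence intervals from the edgeR fit over 4 control and 3 mutant libraries, with colour for role and filled points for the 3 genes past the adjusted threshold. The intervals of *Glra1* (2.07 to 4.48), *Slc12a5* (-0.65 to -0.23) and *Elfn1* (-1.2 to -0.53) lie clear of 0, and *Glra1* stands far from the rest.

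Levels can be compared between genes only per length, and are given here as CPM per kilobase of annotated exon, as the mean of the 4 controls. The most abundant transcript of the set was *Gabarapl1* (198 ± 24.3, SD), an adaptor of the GABARAP family used in autophagy and receptor trafficking. *Gabbr1* (97.3 ± 3.51), *Slc12a5* (80.0 ± 6.10), *Nlgn2* (65.1 ± 6.81), *Gabbr2* (64.3 ± 11.7) and *Gabarap* (51.3 ± 4.17) followed, and the neighbours *Nlgn2* and *Gabbr2* did not differ beyond their spread. Among tested GABAA subunits the order ran from *Gabra5* (26.6 ± 2.41), *Gabra3* (22.4 ± 2.93) and *Gabrd* (21.4 ± 3.67) down to *Gabrg3* (3.40 ± 0.128) and *Gabrg1* (2.26 ± 0.321). Within the glycine receptor family, the β subunit *Glrb* (33.4 ± 4.75) was far above *Glra2* (4.72 ± 0.503), *Glra3* (0.480 ± 0.127) and *Glra1* (0.0512 ± 0.0404). The length of *Kctd16* is less certain than most, since the annotation gives it a single transcript of 1349 bases.

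**Figure D2:**
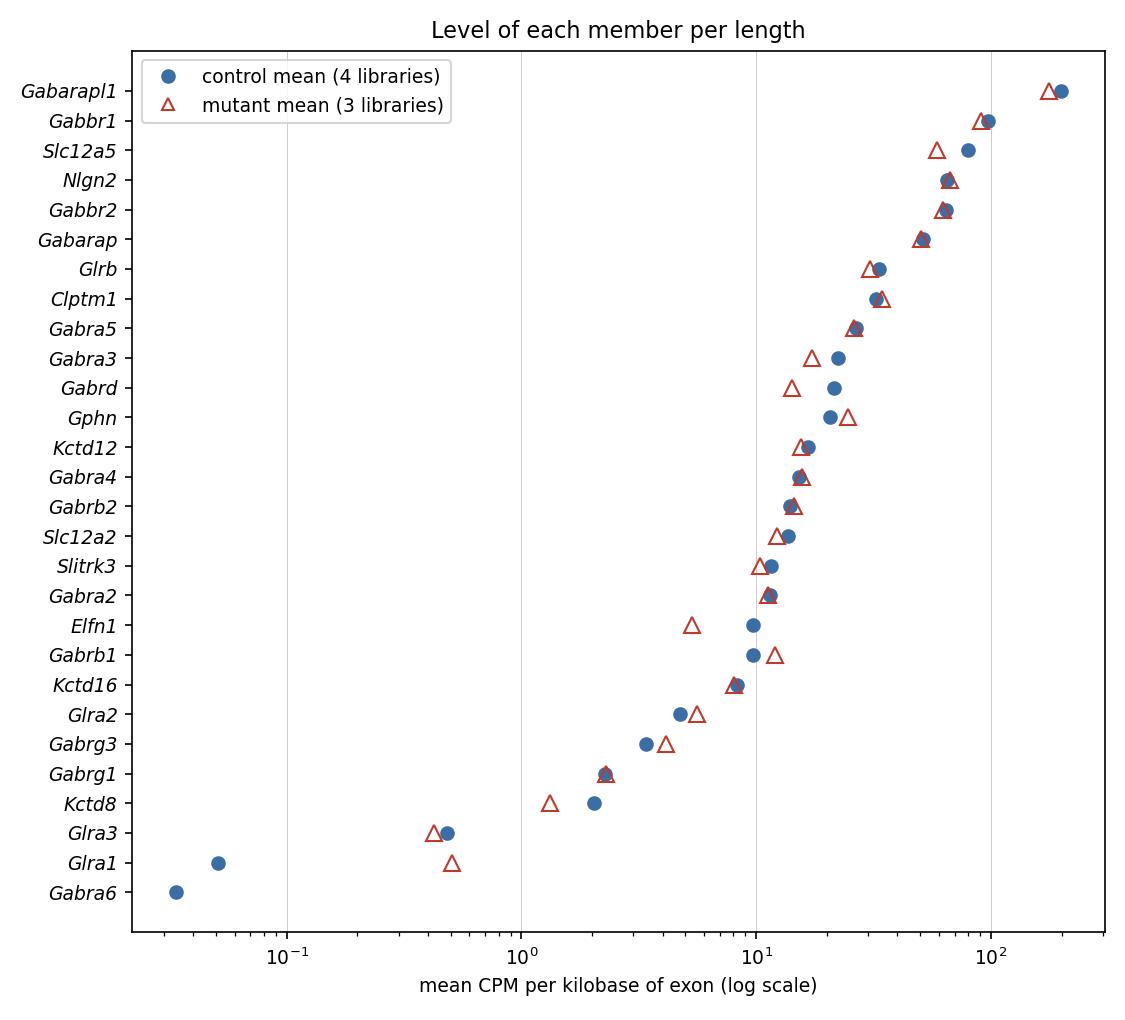
Mean level of each member in control (n = 4) and mutant (n = 3) libraries, in CPM per kilobase of exon on a log axis. The set spans from *Gabarapl1* at 198 in controls to *Glra1* at 0.0512 and *Gabra6* at 0.0339, and *Gabra6* has no mutant point because all 3 mutant libraries had 0 counts.

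Of the α subunits, none passed the test, and their log2 fold changes ran from -0.37 to 0.05. *Gabra3*, the α subunit of many early and monoaminergic or thalamic reticular receptors, had 2591, 3502, 3395 and 3057 normalized counts in controls and 2098, 2703 and 2465 in mutants. Mutants 5 and 13 lay below every control, while mutant 12 lay above control 2. Its log2 fold change of -0.37 ± 0.127 did not pass (adjusted p = 0.157, edgeR), though it passed within libraries 10 to 13 (-0.31, adjusted p = 0.0406). *Gabra2*, which is enriched at the axon initial segment and perisomatic synapses, ranged from 2926 to 3189 in controls and from 2883 to 3265 in mutants, with an interval of -0.19 to 0.15 for the log2 fold change. *Gabra5*, the subunit of extrasynaptic hippocampal receptors, gave 2550 to 3146 against 2660 to 2961 (interval -0.23 to 0.18). *Gabra4*, the usual partner of the δ subunit in forebrain, gave 2438 to 3811 against 2739 to 3849 (interval -0.34 to 0.44). *Gabra6* had 12 counts in control 3 and 0 in the other 6 libraries, where a count of 0 allows up to 3 counts (0.0788 to 0.0921 CPM, counting error only).

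The other GABAA subunits also held no call. *Gabrd*, the δ subunit of extrasynaptic receptors that carry tonic inhibition in dentate granule cells and thalamus, had 1711, 2146, 2289 and 2618 normalized counts in controls and 1162, 1633 and 1587 in mutants. All 3 mutants lay below all 4 controls, by a narrow margin between mutant 12 and control 2. The mean was 2191 ± 376 (SD, n = 4) in controls and 1461 ± 260 (n = 3) in mutants, a log2 fold change of -0.59 ± 0.164 that missed the threshold (adjusted p = 0.0873, edgeR). It passed with DESeq2, within libraries 10 to 13, and in an edgeR fit with a term for the run. Among 5 markers of dentate granule cells 1 passed the test (lower), and the summed level of the list was 56.3 to 77.4 CPM in controls and 56.1 to 65.8 in mutants. Of 6 tested thalamic markers 0 passed (edgeR; 2 had an unadjusted p under 0.05), with 78.0 to 102 CPM against 86.3 to 91.8. The part of either cell type in the *Gabrd* values was not tested.

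*Gabrg3*, a γ subunit of low abundance in forebrain, had 1528, 1412, 1436 and 1415 normalized counts in controls and 1635, 1788 and 1852 in mutants. The controls were close together and all mutants were above them. Its log2 fold change of 0.28 ± 0.0742 missed the threshold (adjusted p = 0.0729, edgeR) and, like *Gabrd*, passed in those fits too. *Gabrb1* had the widest run difference: libraries 2, 3 and 5 gave 4021, 3287 and 4718, and libraries 10 to 13 gave 6315, 5569, 6711 and 6353. Its log2 fold change between genotypes was 0.31 ± 0.224. *Gabrb2*, the β subunit of the most common adult receptors, ranged from 1812 to 3796 in controls, with control 3 far below the rest, and from 2733 to 3873 in mutants. *Gabrg1*, a γ subunit of amygdala and basal forebrain that glia also express, gave 560 to 753 against 539 to 757.

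Several of these genes lie in clusters. On GRCm38, *Gabrg1* (chr5:70751047-70842617), *Gabra2* (chr5:70957597-71095849), *Gabra4* (chr5:71569749-71658308) and *Gabrb1* (chr5:71658113-72149037) follow each other on chromosome 5, the last pair head to head with a short overlap of exons (0.756% of those of *Gabra4*). Their log2 fold changes in that order were 0.03, -0.02, 0.05 and 0.31, with none past the test. On chromosome 7, *Gabrg3* (chr7:56716465-57387188) at 0.28 neighbours *Gabra5* (chr7:57407672-57510059) at -0.02.

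The GABAB receptor subunits overlapped between genotypes. *Gabbr1*, the ligand-binding subunit, had 27719, 25527, 27110 and 27383 normalized counts in controls and 23534, 26806 and 25169 in mutants (log2 fold change -0.10, interval -0.28 to 0.08). *Gabbr2*, which couples to the G protein, had 17373, 11207, 16029 and 16668 against 15537, 15120 and 14240, and control 3 was the low one (-0.03, interval -0.37 to 0.30). The log2 ratio of *Gabbr1* to *Gabbr2* averaged 0.83 ± 0.238 in controls and 0.75 ± 0.13 in mutants (exact two-sided permutation test, p = 0.743, n = 4 and 3). The smallest p that the 35 arrangements of these libraries allow is 0.0571, so no ratio could pass 0.05.

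KCTD proteins bind the tail of GABBR2 and set how fast the receptor desensitizes. *Kctd8* had 222, 250, 229 and 282 normalized counts in controls and 127, 173 and 175 in mutants, so that every mutant lay below every control. Its mean of 246 ± 26.8 (SD) in controls and 158 ± 26.9 in mutants gave a log2 fold change of -0.63 ± 0.158, which missed the threshold (adjusted p = 0.0599, edgeR). It passed with a term for the run (-0.68, adjusted p = 0.0132, edgeR) and with DESeq2 (adjusted p = 0.00925), and missed it within libraries 10 to 13 (adjusted p = 0.0542). *Kctd16* ranged from 240 to 482 in controls, control 3 being the lowest, and from 382 to 397 in mutants. For *Kctd12*, which speeds desensitization, the ranges were 3278 to 4037 and 2654 to 3790. The *Kctd12* counts are uncertain, because 64.2% of its exon bases overlap other annotated genes and 62.8% of its 36-base words (the read length) occur in another gene. Its opposite-strand neighbour *Gm26778* drew 291 normalized counts in control 2, 449 in mutant 5 and 0 elsewhere. With both genes added, *Kctd12* gave 3668, 3278, 4037 and 3616 in controls and 3103, 3790 and 3666 in mutants.

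**Figure D3:**
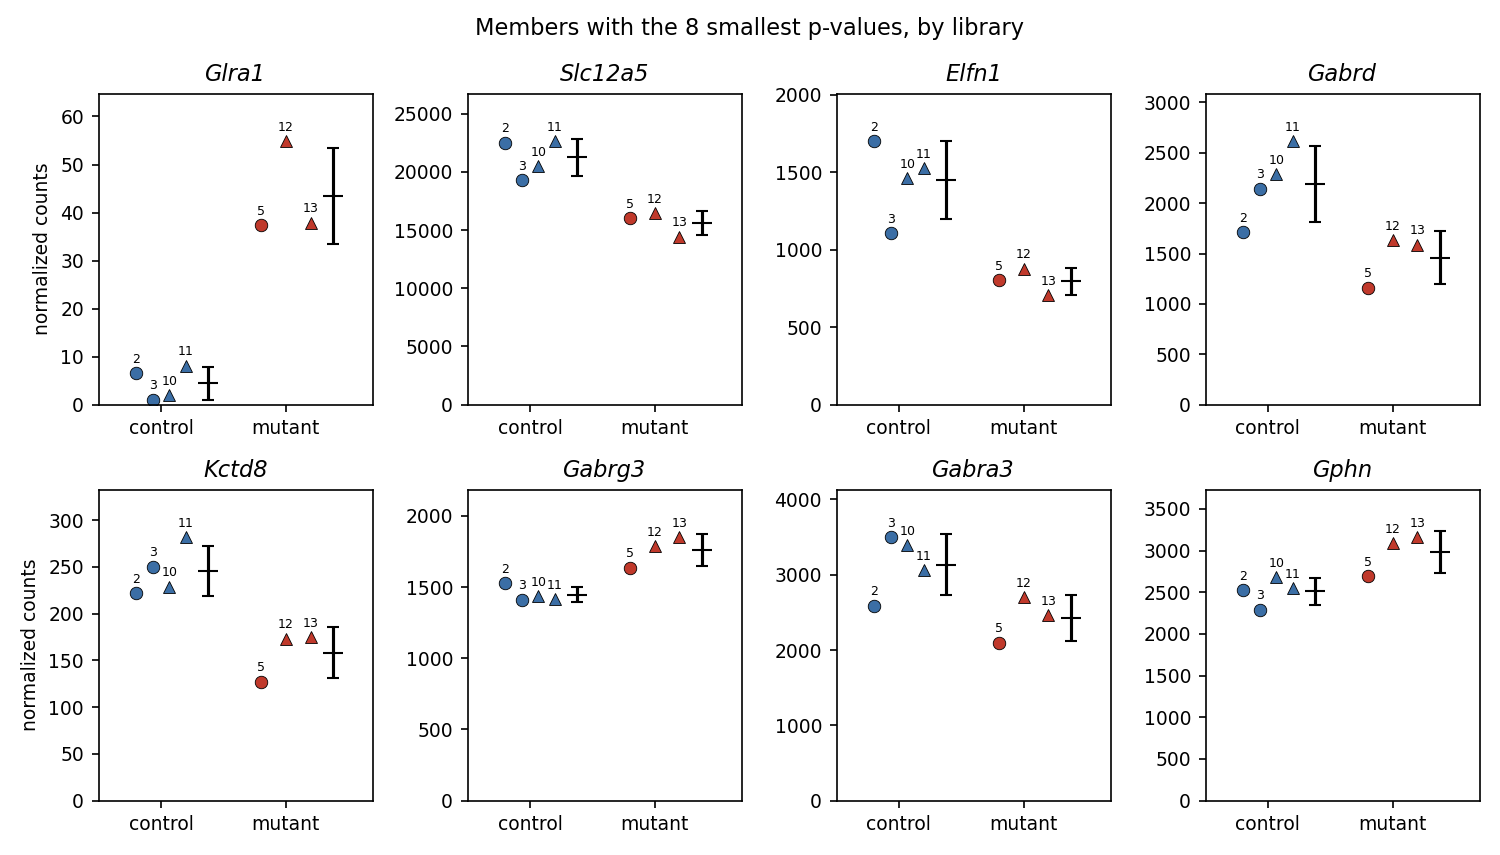
Normalized counts per library of members with the smallest p-values, control and mutant, with circles for libraries 2, 3 and 5, triangles for libraries 10 to 13, and bars for the mean ± SD (n = 4 and 3). Mutants sit apart from controls for *Glra1*, *Slc12a5*, *Elfn1*, *Kctd8*, *Gabrd*, *Gabrg3* and *Gphn*, and overlap them for *Gabra3*.

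Of the glycine receptor subunits *Glra1* passed the test, and *Glra2*, *Glra3* and *Glrb* did not. The α subunit that *Glra1* encodes forms the adult receptor with the β subunit and is best known from spinal cord and brainstem, where its loss causes startle disease. It had 6.58, 1.00, 1.92 and 8.13 normalized counts in controls and 37.4, 54.9 and 37.9 in mutants, from raw counts of 6, 1, 2 and 8 against 39, 53 and 40. Every mutant library was well above every control, yet the mutant mean was 0.504 CPM per kilobase, still low beside *Glra2*. The mean was 4.41 ± 3.48 (SD) in controls and 43.4 ± 9.96 in mutants, and the fitted log2 fold change 3.28 ± 0.530 (interval 2.07 to 4.48, adjusted p = 0.0112, edgeR). With no control at 10 counts and 2 of them at 1 and 2, the gene entered the test through the mutants alone, and the size of the fold rests on a few control reads. Within the runs of library numbers it was 3.29 (libraries 2, 3 and 5) and 3.19 (libraries 10 to 13).

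The *Glra1* call was lost without mutant library 12 (log2 fold change 3.07, adjusted p = 0.0535, edgeR), DESeq2's shrinkage moved the value to 1.17, and a minimum of 10 counts in all 7 libraries left the gene untested. Its exons (chr11:55514238-55608198 on GRCm38, minus strand) overlap *Gm12236* over 5.84% of their length, and that gene had 0 counts in every library. *Slc6a5*, the transporter that marks glycinergic neurons, had 6.58, 6.03, 0.960 and 4.07 normalized counts in controls and 27.8, 14.5 and 18.9 in mutants. Its log2 fold change of 2.2 missed the threshold (adjusted p = 0.0529, edgeR). Its raw counts were 6, 6, 1 and 4 against 29, 14 and 20, so *Slc6a5* too entered the test through the mutants alone. *Slc6a5* belongs to a list of 7 cerebellar and hindbrain markers, of which 4 were tested and 0 passed (edgeR), *Slc6a5* alone having an unadjusted p under 0.05. The other tested markers had negative log2 fold changes: *En2* -0.464, with all mutants below all controls, *Pcp2* -0.335 and *Cbln3* -0.056. The summed level of the list was 1.56 to 3.44 CPM in controls and 2.03 to 3.14 in mutants, and its members *Hoxb5* and *Barhl1* had at most 5.02 and 6.63 normalized counts in any library. The part of such tissue in the *Glra1* values was not tested.

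The other glycine receptor genes overlapped between genotypes. *Glra2*, the α subunit of the immature forebrain, gave 494, 604, 544 and 479 normalized counts in controls and 606, 563 and 717 in mutants (log2 fold change 0.25 ± 0.126, adjusted p = 0.357, edgeR). *Glra3* ranged from 48.2 to 95 and from 46.9 to 88.0. For *Glrb*, the subunit that binds gephyrin, the ranges were 4513 to 6405 and 4079 to 5593, with library 5 the lowest of the mutants and library 2 of the controls.

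Of the 4 scaffold and adhesion genes 1 was lower in mutants, *Elfn1*, and 0 were higher (edgeR). *Elfn1* encodes a leucine-rich repeat protein that sits in the dendrites of somatostatin interneurons and recruits presynaptic metabotropic glutamate receptors to their excitatory inputs. Its normalized counts were 1701, 1105, 1460 and 1526 in controls and 803, 876 and 707 in mutants. Control 3 was the lowest control and still stood above all mutants. The mean fell from 1448 ± 250 (SD, n = 4) to 795 ± 84.4 (n = 3), a log2 fold change of -0.86 ± 0.149 (interval -1.2 to -0.53, adjusted p = 0.0143, edgeR). Within libraries 2, 3 and 5 it was -0.80 and within libraries 10 to 13 it was -0.92.

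Markers of MGE-derived interneurons went in both directions. Of 8 such markers, *Lhx6* itself among them, 5 were lower in mutants, as *Elfn1* was, and 2 higher. The higher ones were *Tac1* (log2 fold change 0.834) and *Crhbp* (0.925), and *Sox6* (-0.304) did not pass. The summed level of the list was 409 to 455 CPM in controls and 208 to 226 in mutants. Of 10 markers of interneurons from the caudal ganglionic eminence 4 were higher and 0 lower, with 425 to 530 CPM against 635 to 730. General GABAergic markers overlapped (993 to 1160 against 928 to 1190 CPM), with 1 of 7 lower and 0 higher. The part of these cell types in the *Elfn1* values was not tested. The call did not hold without mutant library 5 (adjusted p = 0.0509) or 13 (adjusted p = 0.0807, edgeR), where the log2 fold change was -0.87 and -0.79.

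*Gphn*, the gephyrin gene, had 2526, 2292, 2678 and 2546 normalized counts in controls and 2690, 3091 and 3163 in mutants. All mutants lay above all controls, mutant 5 by a small margin. Its log2 fold change of 0.25 ± 0.0870 missed the threshold (adjusted p = 0.171, edgeR) and passed within libraries 10 to 13 (0.27, adjusted p = 0.0354). *Nlgn2*, the adhesion protein specific to inhibitory synapses, gave 12408 to 15485 in controls and 12720 to 15067 in mutants (interval -0.20 to 0.28). *Slitrk3*, which pairs with presynaptic PTPδ, gave 1457 to 2437 and 1487 to 1989, with a log2 fold change of -0.16 ± 0.186 that passed within libraries 10 to 13 (-0.29, adjusted p = 0.028, edgeR).

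The trafficking genes overlapped between genotypes. *Gabarap*, whose product binds γ subunits, ranged from 3059 to 3719 in controls and from 3267 to 3345 in mutants (log2 fold change -0.03, interval -0.21 to 0.16). *Gabarapl1* ranged from 12246 to 15720 and from 11597 to 14142 (-0.17 ± 0.119), and 28.3% of its exon bases overlap the opposite-strand gene *1700101I11Rik*. *Clptm1*, which retains GABAA receptors inside the cell and so limits their delivery, ranged from 6708 to 7549 and from 6733 to 8248 (0.09 ± 0.0951).

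Of the chloride transporters, *Slc12a5* fell and *Slc12a2*, which encodes NKCC1, did not pass over all libraries. *Slc12a5* had 22499, 19301, 20511 and 22657 normalized counts in controls and 16014, 16437 and 14441 in mutants. The lowest control, library 3, was above the highest mutant, library 12. The mean fell from 21242 ± 1620 (SD, n = 4) to 15631 ± 1050 (n = 3), a log2 fold change of -0.44 ± 0.0927 (interval -0.65 to -0.23, adjusted p = 0.0319, edgeR). *Slc12a2* had 2773, 2954, 3570 and 3449 against 2783, 2860 and 2948 (-0.15 ± 0.101, adjusted p = 0.499, edgeR), and within libraries 10 to 13 it was lower as well (-0.27, adjusted p = 0.0365). The log2 ratio of *Slc12a5* to *Slc12a2* was 3.02, 2.71, 2.52 and 2.72 in controls and 2.52, 2.52 and 2.29 in mutants. In linear terms the mean ratio was 6.69 against 5.45 normalized counts of *Slc12a5* per count of *Slc12a2*. The groups met at control 10 and mutant 5, and the difference of -0.29 did not pass (exact two-sided permutation test, p = 0.171, n = 4 and 3).

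The *Slc12a5* call held without control library 3 and was lost when any other library was left out (adjusted p from 0.0721 without control 2 to 0.168 without mutant 13, edgeR), while its log2 fold change stayed between -0.49 and -0.39. It also missed the threshold with no filter on low counts (adjusted p = 0.0629) and with Y-linked expression as a covariate (adjusted p = 0.0555, edgeR). KCC2 is made by neurons, and a list of 8 pan-neuronal markers, chosen after the values were seen, summed to 5860 to 6180 CPM in controls and 5240 to 5610 in mutants. Of that list 1 marker (*Nefl*, a neurofilament, log2 fold change -0.45) was lower and 0 higher, and its median log2 fold change was -0.19. Astrocyte markers summed to 5260 to 7840 against 8710 to 10200 CPM, with 1 of 8 (*Gfap*) higher. *Slc1a2* made up most of that sum, with means of 197133 and 267789 normalized counts, and did not pass (adjusted p = 0.2, edgeR). Markers of myelinating oligodendrocytes summed to 6560 to 8450 against 4700 to 5780 CPM, with 3 of 6 lower. The part of these cell types in the *Slc12a5* values was not tested.

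The promoters of *Slc12a5* and *Elfn1*, both lower in mutants, are shown from RefSeq (GRCm38.p6). The sequence upstream of each can thus be read beside its values. *Glra1*, the other gene past the test, had no promoter entry. *Slc12a5* (chromosome 2) has 2 annotated starts here, those of a longer and a shorter form of KCC2, and the counts cannot tell them apart. Windows run 5′ to 3′ over at most 250 bases upstream of a start and stop before the first annotated exon base, and capitals mark CACGTG.
Slc12a5 first start, chr2:164960596-164960801, plus strand: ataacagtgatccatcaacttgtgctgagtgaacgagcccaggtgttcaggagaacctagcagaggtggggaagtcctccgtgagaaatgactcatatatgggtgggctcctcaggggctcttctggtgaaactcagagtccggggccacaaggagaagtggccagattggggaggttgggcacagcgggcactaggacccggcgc
Slc12a5 second start, chr2:164967738-164967982, plus strand: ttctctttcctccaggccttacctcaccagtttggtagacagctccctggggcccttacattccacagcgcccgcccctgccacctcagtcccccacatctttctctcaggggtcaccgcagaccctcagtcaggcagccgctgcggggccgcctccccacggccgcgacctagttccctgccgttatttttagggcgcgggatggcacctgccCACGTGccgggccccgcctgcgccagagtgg
Elfn1, chr5:139907616-139907865, plus strand: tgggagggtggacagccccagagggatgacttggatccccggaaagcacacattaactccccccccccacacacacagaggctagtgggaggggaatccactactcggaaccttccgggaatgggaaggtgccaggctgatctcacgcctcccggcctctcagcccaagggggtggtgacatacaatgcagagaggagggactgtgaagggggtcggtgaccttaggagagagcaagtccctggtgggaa

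The window at the second *Slc12a5* start was the richer in G and C (66.5%), against 57.3% at the first and 60.8% at *Elfn1*, and the median of 32851 promoters was 52.4%. It held the only CACGTG of these windows, an E-box that 6.02% of all promoters had in a window of this length on either strand. Neither gene had TAATTA, the core that LIM-homeodomain factors such as LHX6 can bind, which occurred in 4.84% of promoters and, of the 24 members with an entry, in that of *Gabrg1*. TGACGTC, part of a cAMP response element (2.78% of promoters), was found at *Kctd8*, and GTGGGCG, part of an EGR site (7.02%), at *Gabbr1* and *Kctd12*. These are matches of letters only, searched on both strands with overlaps allowed. The start of *Elfn1* in RefSeq lies upstream of the first exon base of the deposited annotation (139907943 on chromosome 5).

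A list of 40 further genes of the pathway was counted in the same way: other receptor subunits, partners of gephyrin and neuroligin, trafficking factors, cation-chloride cotransporters with their kinases, and the potassium channels that GABAB receptors open. Of the 36 tested, 2 were higher and 1 lower, beside 2.97% and 1.87% of all tested genes, and the median log2 fold change was 0.04 (-0.01 over all genes). *Kcnj9*, the GIRK3 channel subunit, had 5600, 5399, 4954 and 5227 normalized counts in controls and 2603, 2780 and 2498 in mutants, wide apart and tight within each genotype. Its log2 fold change was -1.01 ± 0.0802 (adjusted p = 0.000581, edgeR), and the call held in all 19 alternatives. The other GIRK genes tested, *Kcnj3* (-0.21) and *Kcnj6* (0.16), did not pass.

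*Iqsec3*, a gephyrin-binding exchange factor of inhibitory synapses, had 6759, 4455, 6631 and 7056 normalized counts in controls and 10203, 10096 and 9764 in mutants, all mutants above all controls. It rose by 0.69 ± 0.149 on the log2 scale (adjusted p = 0.0365, edgeR). The call held without control library 3 and was lost without each other library, with adjusted p between 0.0519 and 0.122. In the fits that lost it the log2 fold change was 0.674 to 0.753. *Gabrq*, the θ subunit of the GABAA receptor, known from hypothalamus and brainstem, had 50.4, 46.2, 49.9 and 33.5 against 91.9, 106 and 97.5. It rose by 1.13 ± 0.194 (adjusted p = 0.0145, edgeR), and missed the threshold without mutant 12 (0.0672) or 13 (0.0710), where the log2 fold change was 1.07 and 1.13.

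On the X chromosome *Gabrq* (chrX:72825178-72842602) lies beyond *Gabra3* (chrX:72432681-72656848) and *Gabre* (chrX:72255999-72274803), so the cluster held a gene that rose beside *Gabra3* at -0.37 and *Gabre* at 0.66 ± 0.433 (adjusted p = 0.493, edgeR). The largest remaining differences that did not pass were *Wnk2* (0.38 ± 0.164), a kinase that regulates the cotransporters, and *Slc12a4* (0.37 ± 0.0933), the widely expressed KCC1. *Slc12a4* had 1386, 1132, 1255 and 1417 normalized counts in controls and 1592, 1719 and 1725 in mutants (adjusted p = 0.0606, edgeR). It passed with DESeq2 (adjusted p = 0.0124), with a term for the run (adjusted p = 0.0297, edgeR) and within libraries 10 to 13 (adjusted p = 0.0248). Neuronal KCC2 and ubiquitous KCC1 transcripts had values of opposite sign. In 8 of the 36 genes all mutants lay above all controls, and in 1 below, where all genes gave 10.7% and 9%.

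**Figure D4:**
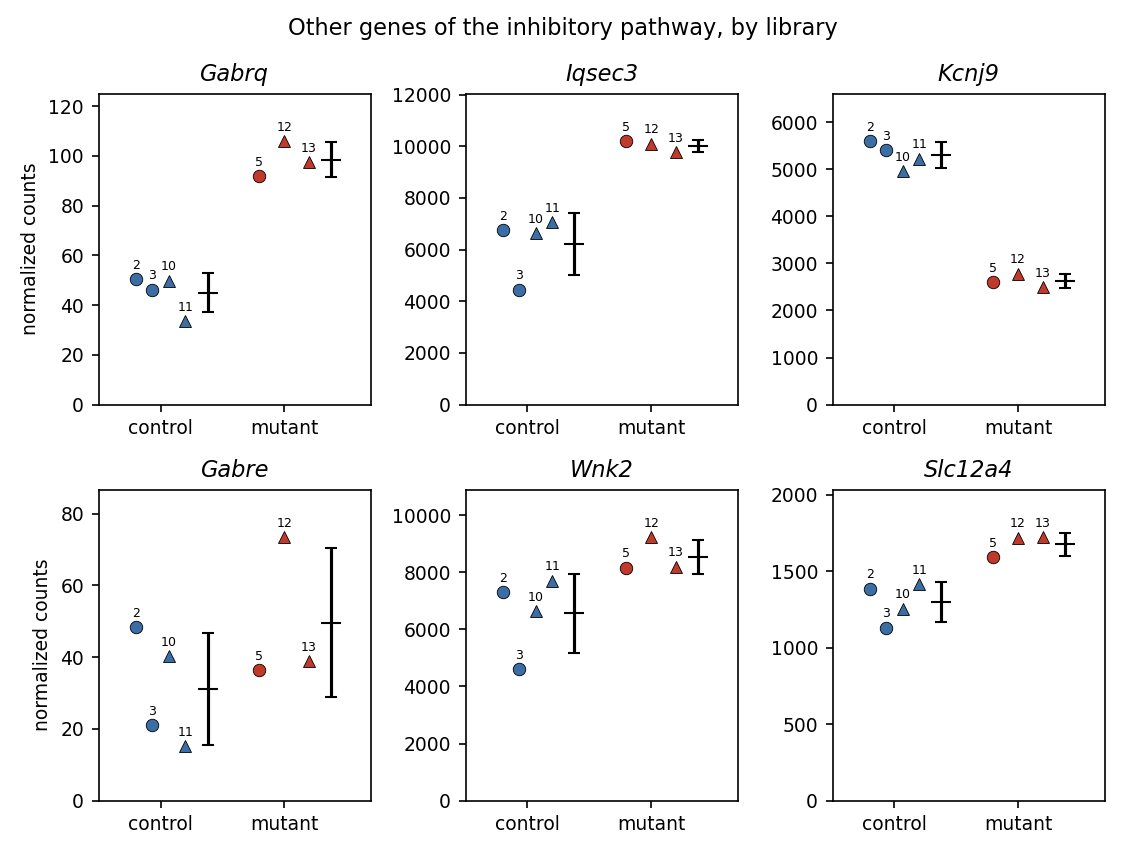
Normalized counts per library of the named genes of the wider pathway, with circles for libraries 2, 3 and 5, triangles for libraries 10 to 13, and bars for the mean ± SD (4 controls, 3 mutants). *Kcnj9* falls from about 5295 to 2627 with no overlap, *Iqsec3* and *Gabrq* lie higher in all mutants, and *Gabre* overlaps.

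The run of library numbers reached more members than genotype did. Genotype reached 3 without a term for the run, and 2 higher and 4 lower with that term. In controls the run coincided with sex and cannot be told from it. Libraries 10 to 13 differed from libraries 2, 3 and 5 in 8 of the 27 (29.6%), beside 14.7% of all tested genes (7% higher and 7.75% lower). Higher in libraries 10 to 13 were *Gabrb1* (log2 difference 0.61), *Slitrk3* (0.49), *Gabra4* (0.42), *Gabrd* (0.40), *Glrb* (0.35), *Gabrg1* (0.34) and *Kctd12* (0.32), and *Gabarapl1* was lower (-0.28). For *Kctd12* with the overlapping *Gm26778* added, the runs overlapped, at 3103 to 3668 normalized counts in libraries 2, 3 and 5 and 3616 to 4037 in libraries 10 to 13, and that sum was not tested. None of *Glra1*, *Slc12a5* or *Elfn1* was among them. The genotype effect differed between runs in 0 of 27 members by the edgeR interaction test, and in 0 at an unadjusted p of 0.05, beside 0.0152% and 2.64% of all genes. With 1 mutant library in the first run this test has little to work with. Control 3 was the lowest library for 9 of the 27 members (24.3% of all genes) and mutant 5 for another 9 (15.8%), and mutant 5 was the highest for 0 (16.8%).

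**Figure D5:**
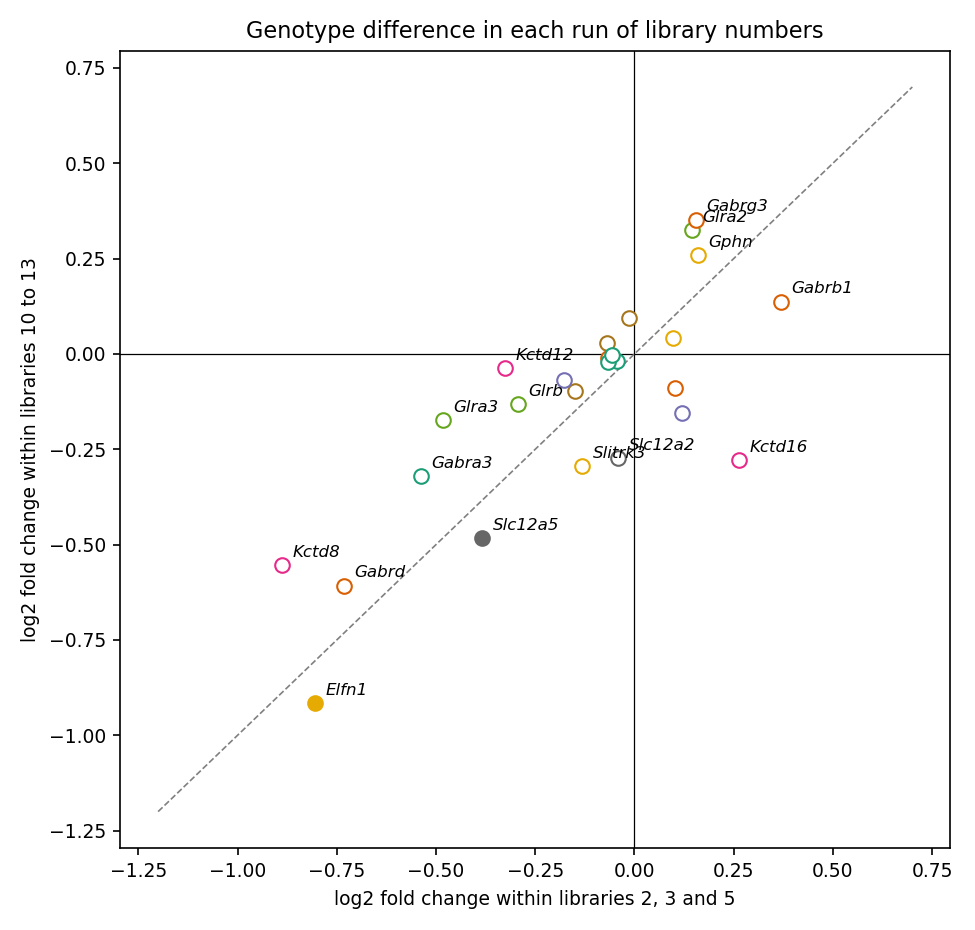
Log2 fold change (mutant relative to control) of members within libraries 2, 3 and 5 (x axis) against that within libraries 10 to 13 (y axis), with a dashed line of equal values, filled points for genes past the threshold over all libraries, and *Glra1* left out for scale. *Elfn1* lies at -0.80 and -0.92 and *Slc12a5* at -0.38 and -0.48, and members near 0 take either sign.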

How the data were processed

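Forebrain RNA from 7 pools of 2 mice was sequenced as 36-base single reads. The authors trimmed reads with cutadapt 1.9.1, aligned them with Bowtie2 2.2.9 to GRCm38 and deposited expected counts per gene from RSEM 1.2.31, without normalization. RSEM divides a read that fits several genes between them, so 32.9% to 36.0% of values were not whole, and overlapping or similar genes have less certain counts. Strandedness of the counting is not given in the sources used here. The deposited comparison table holds the authors' DESeq2 fold changes and p-values, which were not used; gene symbols were taken from it. Columns name a genotype and a library number and could not be tied to single labelled pools (0 per-sample columns were left unused).

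Counts were rounded and kept for genes that reached 10 in 3 or more libraries. TMM scaling and the quasi-likelihood F test of edgeR 4.0.16 (R 4.3.3) compared mutant with control libraries without covariates, with Benjamini-Hochberg adjustment over all 19684 genes (threshold 0.05). Standard errors were derived from the log2 fold change and the square root of F, and intervals cover 95%. Ratios used a pseudocount of 1 normalized count. Replicates of a genotype were checked first, and every pair differed beyond sampling noise (chi-square per degree of freedom 9.36 to 65.9), so each library counted as 1 sample. P-values measure the spread between pools. Scripts were tested on simulated data. Alternatives were DESeq2 1.42.0 (beta prior off or on), voom weights in limma 3.58.1, scaling by RLE or by upper quartile, filters of none or of 10 counts in all 7 libraries, unrounded counts, the run of library numbers or Y-linked expression as covariate, libraries 10 to 13 alone, no genes on X and Y, and each library left out. All members are named; of the wider list, the genes past the threshold and the 3 largest differences not past it, with the GIRK genes *Kcnj3* and *Kcnj6* named beside *Kcnj9* after their values were seen. Members, lists and tests were chosen with earlier results of these data known. Promoters came from RefSeq and matched 24 of the 28 members.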

Additional observations from a re-analysis of the deposited data

How the results depend on the processing

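Of 510 refits of single members, 447 kept direction and side of the threshold, 11 lost a call, 15 gained one and 37 in 13 members changed sign, none of those values beyond 0.186 in size. With DESeq2 without and with its beta prior 1731 and 1734 genes were called, and 2 members higher and 4 lower (*Gabrg3*, *Gabrd* and *Kctd8* added). The run covariate gave 2205 genes and the same 2 and 4. Libraries 10 to 13 alone gave 1860 genes, 3 members higher and 6 lower (*Gphn*, *Gabrg3*, *Gabra3*, *Gabrd*, *Slc12a2* and *Slitrk3* added), and 5 higher and 3 lower in the wider list. In those libraries genotype coincided with the Y-linked level, so these calls cannot be tied to genotype alone. Without a filter 1 member was lower, as with the Y-linked covariate. With 10 counts in all 7 libraries 0 members were higher (edgeR), because *Glra1* was not tested. Without X and Y genes 1 wider gene was higher, *Gabrq* being on X. Upper quartile scaling raised the higher share of calls from 61.3% to 67.7% and the median of all genes by 0.025. Leaving out single libraries gave 324 (without mutant 13) to 949 genes (without control 3), 0 to 1 members higher, 0 to 2 lower, and 0 to 2 wider genes higher. The mutant minus control difference in the log2 ratio of *Gabbr1* to *Gabbr2* ran from -0.138 to 0.033, turning positive without control 3, and that for *Slc12a5* to *Slc12a2* from -0.368 to -0.202.

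Log2 fold changes that changed sign were as follows. Upper quartile scaling gave *Gabarap* 0.000431, *Gabra2* 0.00249 and *Gabra5* 0.00194, and limma-voom *Kctd16* 0.0121. The run covariate gave *Gabra4* -0.0241, *Gabrb2* -0.0129 and *Gabrg1* -0.0332. Libraries 10 to 13 gave *Gabarap* 0.0371, *Gabrb2* -0.0811 and *Gabrg1* -0.00232. The Y-linked covariate gave *Gabbr2* 0.0514, *Gabra2* 0.00753, *Glra3* 0.0112, *Kctd16* 0.186, *Nlgn2* -0.00902 and *Slitrk3* 0.0751. Leaving out single libraries, *Gabarap* ran from -0.0691 to 0.0251, *Gabbr2* from -0.158 to 0.0317, *Gabra2* from -0.0737 to 0.0167, *Gabra4* from -0.0727 to 0.184, *Gabra5* from -0.0716 to 0.0319, *Gabrb2* from -0.14 to 0.168, *Gabrg1* from -0.104 to 0.141, *Glra3* from -0.384 to 0.0407, *Glrb* from -0.218 to 0.003, *Kctd12* from -0.179 to 0.0601, *Kctd16* from -0.218 to 0.0669 and *Nlgn2* from -0.0302 to 0.112. Mutant 5 was the library left out at the end of opposite sign for *Gabra2*, *Glra3*, *Glrb*, *Kctd12* and *Nlgn2*. The cause was not tested. No paired analysis was possible because the columns carry library numbers and not the replicate numbers of the labels.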
